A study of Mus musculus with 9 samples.

Results

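The Dlk1-Dio3 domain on mouse chromosome 12 holds a large group of microRNA genes, and their products were followed here in small extracellular vesicles from mouse serum. Members were all known microRNAs whose number belongs to a list of 53 numbers of this domain, with any letter and either arm. The deposited counts held 77 such mature microRNAs from 50 precursors, of 1064 known microRNAs in all. They were 36 of the 5p arm and 41 of the 3p arm. The numbers miR-410, miR-432, miR-539, miR-1188, miR-3071 and miR-3544 were not analysed here. The rule itself uses names and no measured value.

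Small RNA was sequenced in 9 libraries, 3 from each of 3 groups. The groups were chow-fed wild-type mice (chow WT), wild-type mice given a high fat diet (HFD WT), and mice given that diet with adipose-specific overexpression of Sirt3, a mitochondrial deacetylase (HFD Sirt3 AKI). The series title speaks of male mice, while age, strain, promoter and any pooling of animals are not stated in the labels. The library names of HFD WT carry a Sirt3 code, those of HFD Sirt3 AKI the same code with a suffix, and those of chow WT neither, so diet and mouse line cannot be told apart between chow WT and HFD WT. The labels name separate samples but not separate animals, and p-values therefore measure only the spread between these samples.

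Genes of this domain are imprinted, that is, read from only one parental copy. The protein genes Dlk1, Rtl1 and Dio3 are read from the paternal copy, while the long noncoding RNAs Meg3, Rian and Mirg and the microRNAs along them come from the maternal copy. The microRNAs are known for high levels in embryo, placenta and adult brain, and for low levels in most other adult tissues. Members near Rtl1 lie antisense to that gene and can direct its cleavage, and the miR-379 to miR-410 part is known for a role in the metabolic adaptation of the newborn liver.

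Along the chromosome the members fell into 20 between Meg3 and miR-136, 3 of miR-341 and miR-370, and 54 from miR-379 to miR-3072. RefSeq (GRCm38.p6) gave a mature sequence for 74 of the 77, all on the plus strand except the 2 arms of miR-299b. The sequences shown are those of the microRNAs called changed, of the 10 most counted members, and of miR-431-5p, the one tested member whose TMM-scaled levels in HFD Sirt3 AKI all lay above HFD WT, since the results turn on them. They run 5′ to 3′, and capitals mark the seed, bases 2 to 8, which leads target pairing.

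miR-434-3p: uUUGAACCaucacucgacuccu
miR-541-5p: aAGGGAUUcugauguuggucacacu
miR-381-3p: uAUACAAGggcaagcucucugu
miR-134-5p: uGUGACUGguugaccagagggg
miR-154-5p: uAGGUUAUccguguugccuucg
miR-127-3p: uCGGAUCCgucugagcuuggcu
miR-411-5p: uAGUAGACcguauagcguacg
miR-379-5p: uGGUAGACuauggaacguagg
miR-300-3p: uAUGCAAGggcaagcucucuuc
miR-382-5p: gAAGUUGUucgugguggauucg
miR-341-3p: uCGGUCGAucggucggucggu
miR-136-3p: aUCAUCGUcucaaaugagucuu
miR-431-5p: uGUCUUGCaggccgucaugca

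The seeds of these 13 microRNAs all differ. Among all members with a sequence there were 70 seeds, and only 4 seeds were shared, each by 2 members. These were miR-370-5p with miR-1193-3p, miR-379-3p with miR-411-3p, miR-299a-3p with miR-299b-3p, and miR-376b-5p with miR-376c-5p. Close relatives can still differ in the seed. From miR-379-5p to miR-411-5p 14 of 21 positions were identical, and 1 of the 7 differences, G2A counted from the 5′ end, lay in the seed. From miR-381-3p to miR-300-3p 19 of 22 positions were identical, and the seed differed by A4G. The 5p arms of miR-299a and miR-299b, which are encoded on opposite strands of one site, had identical counts in every library, so their reads cannot be assigned to one of them. The 18 bases of miR-299b-3p equal the start of miR-299a-3p. Counts of these 3p arms differed only in HFD WT replicate 2 (14 and 16), and they entered the tests as 2 members.

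The cluster was a small part of the vesicle microRNAs. Its members took 0.0629%, 0.0706% and 0.0431% of all counts for chow WT, 0.0636%, 0.0643% and 0.0598% for HFD WT, and 0.0586%, 0.245% and 0.0954% in HFD Sirt3 AKI. The 6 wild-type libraries thus lay within a narrow range, and so did replicate 1 of HFD Sirt3 AKI, while replicate 2 of that group stood far above all others. A lower share may come from fewer vesicles of a source or from less of the microRNA in each vesicle, which cannot be told apart in serum. A share also falls when the counts of other microRNAs rise.

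Depth differed by group and limits what can be said of chow WT. Library totals were 225002 to 306974 counts for chow WT, 1953935 to 2162009 for HFD WT and 1729416 to 2973432 in HFD Sirt3 AKI. Members held 97 to 207 counts in a chow WT library, 1168 to 1375 for HFD WT and 1741 to 4243 in HFD Sirt3 AKI. A batch label sets HFD Sirt3 AKI replicates 2 and 3 apart from the other 7 libraries. Levels of single microRNAs are given as counts per 1000000 of the library total after TMM scaling, which uses a trimmed mean of ratios between libraries (normalised CPM). This scaling rates chow WT libraries as larger than their totals (factors 1.28 to 1.33) and HFD WT libraries as smaller (0.757 to 0.832).

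On that scale the summed level of the members was 452 ± 113 normalised CPM for chow WT, 796 ± 46.2 for HFD WT and 1308 ± 838 for HFD Sirt3 AKI (SD, n = 3). The gap between the wild-type groups depended on the scaling, since the share of the library total was 0.0589 ± 0.0142% for chow WT and 0.0626 ± 0.00243% for HFD WT, a difference smaller than the spread of the former. In HFD Sirt3 AKI the share was 0.133 ± 0.0989%.

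**Figure D1:**
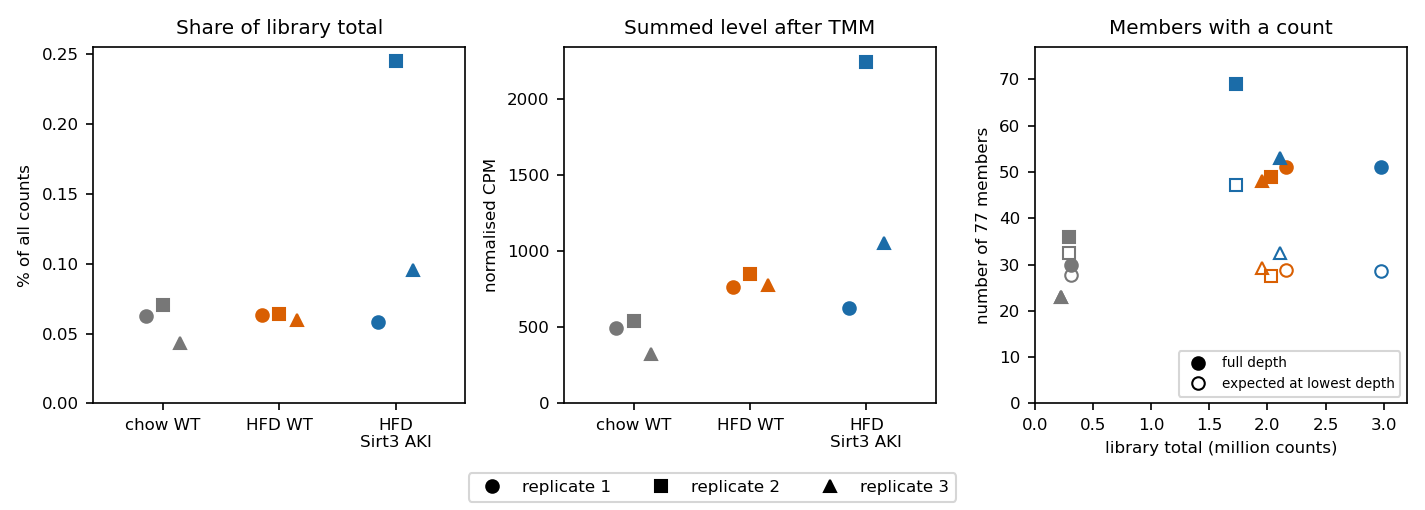
The left plot gives the share of each library's counts held by the 77 members (%), the middle plot their summed level (normalised CPM), and the right plot the number of members with a count against the library total, filled at full depth and open for the number expected at the lowest depth. Symbols mark replicates, and colours mark the groups (grey chow WT, orange HFD WT, blue HFD Sirt3 AKI). HFD Sirt3 AKI replicate 2 is highest in all 3 plots, with a share of 0.245%.

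The number of members seen differed between the groups along with depth. A mean of 29.7 ± 6.51 members had a count in a chow WT library, 49.3 ± 1.53 for HFD WT and 57.7 ± 9.87 for HFD Sirt3 AKI (SD, n = 3). The number expected had each library been read to 225002 counts was 27.8 ± 4.77, 28.5 ± 0.843 and 36.1 ± 9.80 in the same order. At equal depth chow WT and HFD WT thus differed by less than their spread, and in HFD Sirt3 AKI replicate 2 alone stood out, with 47.2 expected against 28.6 and 32.4.

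Few members carried most of the signal. Of 12341 member counts miR-127-3p held 24.7%, the 5 most counted members 56.0% and the 10 most counted 75.5%. At the other end 24 members had under 10 counts over all 9 libraries, of which 11 had a single count. Only 15 members had a count in every library. The members between Meg3 and miR-136 and those from miR-379 to miR-3072 took nearly equal parts, 49.4% and 46.4% of member counts, and miR-341 with miR-370 the remaining 4.18%.

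Of the 27 precursors with both arms counted, the 3p arm was the more counted in 16 and the 5p arm in 11. The 16 include both miR-299a and miR-299b, whose counts nearly coincide. The bias was near complete in miR-541, miR-411, miR-379 and miR-300. The 5p arms of miR-541, miR-411 and miR-379 had 947, 726 and 536 counts, against 1, 1 and 4 for their 3p arms, while miR-300 had 427 counts of its 3p arm and 1 of its 5p arm. In miR-382 the 5p arm led with 544 counts against 27. In miR-127 the 3p arm took 93.6% of the precursor's counts in chow WT (95% Clopper-Pearson interval 88.2% to 97.0%), 94.5% for HFD WT (92.8% to 96.0%) and 94.2% in HFD Sirt3 AKI (93.2% to 95.2%). In miR-434 the 3p arm took 77.6% (65.8% to 86.9%), 84.0% (80.9% to 86.8%) and 78.3% (75.9% to 80.6%) in the same order. In miR-136 it took 85.7%, 92.2% and 81.7%. The intervals cover counting error in summed libraries only, and no difference in arm use between groups was tested.

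HFD WT was compared with chow WT, groups in which diet and mouse line cannot be told apart. A total of 25 members passed the filter on low counts, about 5.12 CPM in any 3 libraries. Of these, 5 were higher in HFD WT: miR-434-3p, miR-541-5p, miR-381-3p, miR-134-5p and miR-154-5p. They had an adjusted p (Benjamini-Hochberg over all tested microRNAs) below 0.05. Their increases ran from 2.23-fold to 4.32-fold, and no member fell. This is 20.0% of the tested members called higher, against 21.5% of all 414 tested microRNAs (37.7% in either direction), so the share of increases was near the background. None of the tested members was called lower, against 16.2% of all tested microRNAs. At an unadjusted p below 0.05 there were 7 members higher (28.0%, against 25.1% of all tested microRNAs) and 0 lower (against 20.3%) in the same edgeR fit. The filter could be passed through 1 group alone, and 10 of the tested members had no count in at least 1 chow WT library.

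The most counted of the 5, miR-434-3p, comes from the antisense side of Rtl1. Its level was 63.7, 52.2 and 23.4 normalised CPM for chow WT and 97.3, 118 and 102 for HFD WT, so that all HFD WT libraries lay above all of chow WT on this scale. As CPM of the library total miR-434-3p was at 81.4, 68.2 and 31.1 against 80.9, 89.2 and 78.8, which overlap. Its log2 fold change was 1.16 (SE 0.37, edgeR adjusted p = 0.0303). The other arm, miR-434-5p, was at 15.3, 10.4 and 16.7 for chow WT and at 20.0, 25.4 and 14.6 for HFD WT, which overlap, at a log2 fold change of 0.51 (edgeR adjusted p = 0.522).

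Near the far end of the cluster lies miR-541-5p, which had 38.2, 28.7 and 16.7 normalised CPM for chow WT and 78.4, 100 and 49.1 for HFD WT. Its groups did not overlap on this scale, and its log2 fold change was 1.42 (SE 0.46, edgeR adjusted p = 0.0309). For miR-381-3p the values were 20.4, 13.0 and 16.7 for chow WT and 46.7, 43.0 and 66.3 for HFD WT, again without overlap (log2 fold change 1.63, SE 0.49, edgeR adjusted p = 0.0225). Its near relative miR-300-3p, whose seed differs by the single base given above, was at 5.10, 15.6 and 16.7 for chow WT and at 20.0, 25.4 and 31.2 for HFD WT. These groups did not overlap either, but the log2 fold change of 1.05 did not pass (SE 0.67, edgeR adjusted p = 0.249).

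The remaining increases rest on few counts in chow WT. The microRNA miR-134-5p, known in neurons as a regulator of dendritic spine size through Limk1, had 2, 4 and 1 counts for chow WT and 20, 50 and 28 for HFD WT. In normalised CPM this was 5.10, 10.4 and 3.34 against 11.1, 32.6 and 18.6, with the lowest HFD WT library just above the highest of chow WT. Its log2 fold change was 1.66 (SE 0.57, edgeR adjusted p = 0.0410). Counts of miR-154-5p were 2, 2 and 0 for chow WT and 35, 17 and 27 for HFD WT, or 5.10, 5.22 and 0 against 19.5, 11.1 and 17.9 normalised CPM. It had the largest change of the 5, 2.11 on the log2 scale (SE 0.64, edgeR adjusted p = 0.0236).

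**Figure D2:**
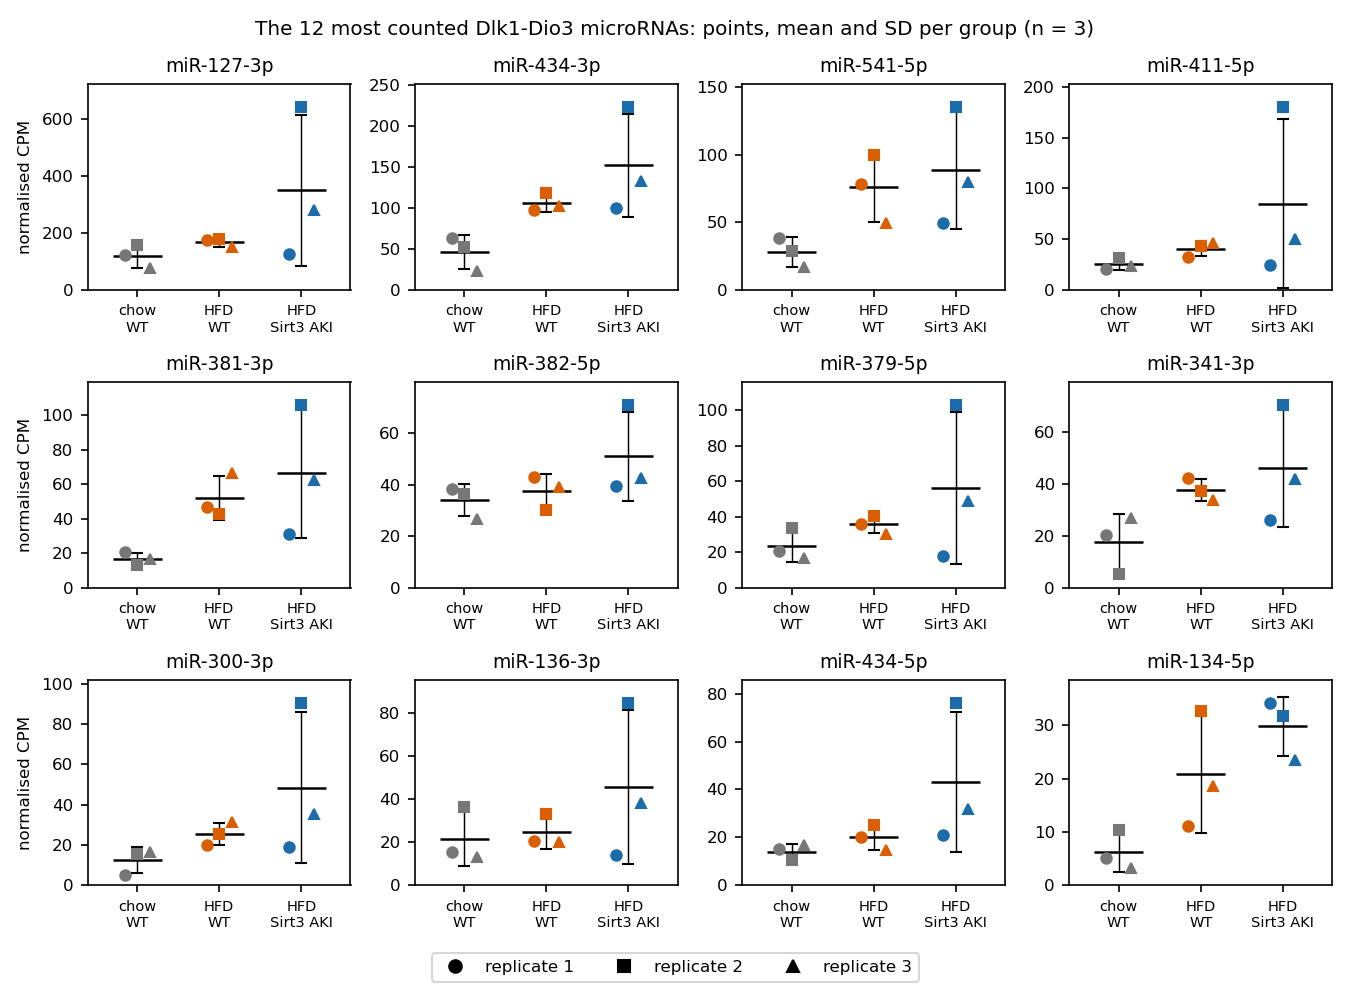
Each plot gives 1 of the 12 most counted members, with its level in normalised CPM on a linear axis from 0 and the 3 groups side by side. Symbols mark replicates, long bars the mean and whiskers the SD (n = 3). For miR-434-3p and miR-381-3p all HFD WT points lie above all chow WT points on this scale, and in 11 of the 12 plots HFD Sirt3 AKI replicate 2 is the highest point of all.

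The other abundant members did not pass. The most counted member, miR-127-3p, is fully complementary to Rtl1 mRNA. It was at 122, 159 and 76.8 normalised CPM for chow WT and at 174, 180 and 149 for HFD WT, where the ranges overlap (log2 fold change 0.48, SE 0.50, edgeR adjusted p = 0.499). Its other arm miR-127-5p had a log2 fold change of 0.25, and miR-382-5p one of 0.13. For miR-379-5p, a liver regulator of triglyceride handling, the values were 20.4, 33.9 and 16.7 for chow WT and 36.1, 40.4 and 30.5 for HFD WT (0.57, SE 0.59). The related miR-411-5p had 20.4, 31.3 and 23.4 against 32.8, 43.0 and 46.4 without overlap (0.70, SE 0.68), and miR-136-3p a log2 fold change of 0.15. With library totals the values of miR-127-3p, miR-127-5p, miR-382-5p, miR-379-5p, miR-411-5p, miR-434-5p and miR-136-3p lay below 0, from -0.59 to -0.04, so their direction followed the scaling.

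An unadjusted p below 0.05 was also reached by miR-341-3p and miR-540-3p. The level of miR-341-3p was 20.4, 5.22 and 26.7 normalised CPM for chow WT and 42.3, 37.1 and 33.8 for HFD WT, without overlap (log2 fold change 1.15, SE 0.52, edgeR adjusted p = 0.110). For miR-540-3p a total of 1 count in chow WT stood against 13, 15 and 5 counts for HFD WT (log2 fold change 2.76, SE 1.18, edgeR adjusted p = 0.0916). All 3 libraries of HFD WT lay above all 3 of chow WT for 10 of the 25 tested members, or 40.0%, against 30.9% of all tested microRNAs. No tested member had all HFD WT libraries below those of chow WT, against 23.9%. With library totals the separation held for miR-154-5p and miR-381-3p only, 2 of 25 tested members against 8.94% of all tested microRNAs. All HFD WT libraries were below chow WT for miR-299a-3p and miR-299b-3p, whose counts nearly coincide, against 46.4% of all tested microRNAs.

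The 25 members had a median log2 fold change of 0.87, from -0.82 for miR-136-5p to 2.76, with 21 above 0. All 414 tested microRNAs had a median of 0.15, with 54.3% above 0. The distance of the members from the whole was thus 0.72. Members could pass the filter through their HFD libraries alone, and 13 of the 25 reached its level in all 3 chow WT libraries. When only the 2 groups compared were filtered and fitted, 15 members were tested, with a median of 0.50 and a distance of 0.41. With library totals in place of TMM the median of all tested microRNAs moved by -0.72 to -0.57. The tested members moved by -0.74 to -0.68 each, their median became 0.17, and the distance was 0.74. No member was called with library totals, nor with limma on TPM, which also uses library totals. With library totals the log2 fold changes of the 5 called members were 0.44 to 1.41, in the same direction but not past the test. The standard error was larger for the members, at a median of 0.66, than for all tested microRNAs, at 0.36.

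Of all 414 tested microRNAs 21.5% were called higher in HFD WT than in chow WT. By place in the cluster this held for 1 of 9 tested members between Meg3 and miR-136 and 4 of 15 from miR-379 to miR-3072. The 9 and the 15 had median log2 fold changes of 0.48 and 1.02. Between Meg3 and miR-136 the summed level of all members was 229 ± 74.3 normalised CPM for chow WT and 365 ± 30.3 for HFD WT. From miR-379 to miR-3072 it was 204 ± 46.9 and 393 ± 22.2 (SD, n = 3). A difference between these parts was not tested.

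**Figure D3:**
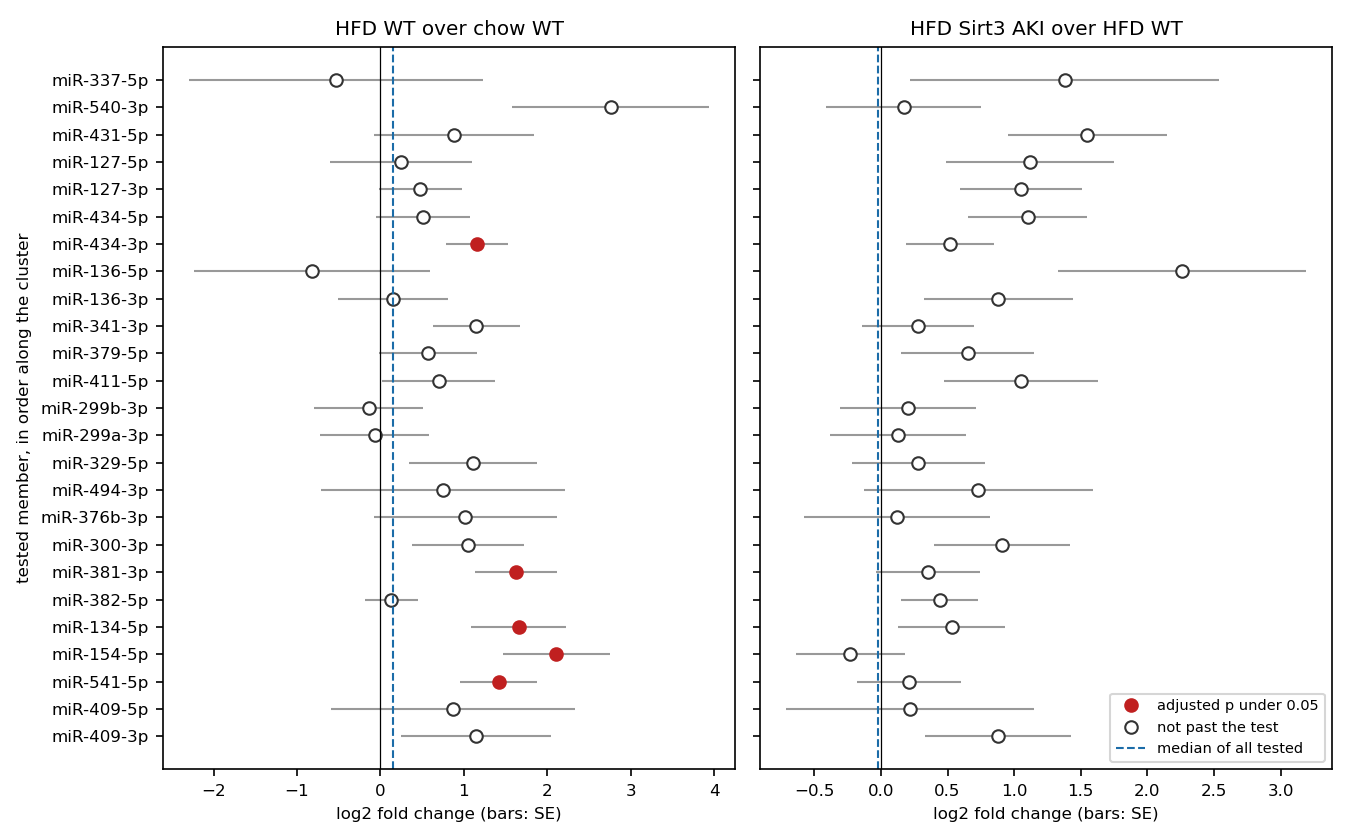
Log2 fold changes of the 25 tested members, ordered along the cluster from Meg3 (top) to the far end (bottom), with bars of 1 SE, for both comparisons. Filled red points passed the test, the solid line marks 0 and the dashed line the median of all 414 tested microRNAs. The 5 filled points of the left plot lie between 1.16 and 2.11, and the right plot has none.

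The calls changed when single libraries were left out, which also leaves fewer libraries to test. Without chow WT replicate 3, the shallowest library and the lowest in miR-434-3p, miR-541-5p and miR-134-5p, no member was called, with log2 fold changes of 0.87 for miR-434-3p, 1.18 for miR-541-5p, 1.63 for miR-381-3p, 1.41 for miR-134-5p and 1.63 for miR-154-5p. Calls fell to 1 (miR-541-5p) without HFD WT replicate 3 and to 2 when either chow WT replicate 2 or replicate 1 of HFD WT was left out. Without HFD WT replicate 2 there were 3, of which miR-667-3p was new. In these fits 29 to 32 members were tested, and 61 to 72 of all 429 to 444 tested microRNAs were called higher.

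Of the 52 members left out by the filter, some had counts in the deeper high fat diet libraries only. A total of 30 of the 77 members had no count for chow WT, against 16 for HFD WT and 7 in HFD Sirt3 AKI. Group totals were 825165, 6144179 and 6812286 counts in the same order, so absence in chow WT cannot be told apart from low depth. At the lowest depth 27.8 members were expected in a chow WT library and 28.5 for HFD WT. The same numbers over all microRNAs were not counted here. With 825165 counts for chow WT, a floor of 3 counts over the group stands for 2.79 normalised CPM. Chosen after their values were seen, miR-667-3p had 14, 1 and 12 counts for HFD WT, at least 2.00-fold higher than that floor, and miR-323-3p had 5, 8 and 8, at least 1.55-fold higher. With library totals the floor was 3.64 CPM, and the values of 4.39 and 3.42 CPM lay 1.21-fold above it for miR-667-3p and below it for miR-323-3p. In HFD WT replicate 2 miR-667-3p, with its 1 count, was below the floor. These bounds cover counting error only, since reads without molecular identifiers are not independent molecules. The floor bounds members with no count in chow WT and is not a limit of detection, since miR-540-3p had 1 count over that group.

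The effect of adipose Sirt3 under the diet was read from HFD Sirt3 AKI against HFD WT. No member was called by edgeR in either direction, against 1.45% of all tested microRNAs called higher and 7.49% called lower (8.94% in either direction). At an unadjusted p below 0.05, 4 members were higher (16.0%, against 12.8% of all tested microRNAs) and 0 lower (against 13.5%), so the share of higher ones was near the background. The 4 were miR-127-3p, miR-434-5p, miR-431-5p and miR-136-5p. DESeq2 called 1 member higher, miR-127-3p, against 35 of all 414 tested microRNAs, and gave no adjusted p for 13 of the 25 members.

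The level of miR-127-3p was 174, 180 and 149 normalised CPM for HFD WT and 126, 641 and 280 in HFD Sirt3 AKI. The lowest library of the latter was thus below HFD WT and the others above it (log2 fold change 1.05, SE 0.46, edgeR adjusted p = 0.173). For miR-434-5p the values were 20.0, 25.4 and 14.6 for HFD WT and 21.2, 76.1 and 31.9 in HFD Sirt3 AKI (1.10, SE 0.45, edgeR adjusted p = 0.146). The microRNA miR-431-5p, which acts on Pax7 in muscle stem cells, was at 6.67, 3.26 and 10.6 for HFD WT and at 10.8, 35.4 and 14.7 in HFD Sirt3 AKI. On this scale it alone among the 25 tested members had all libraries of HFD Sirt3 AKI above all of HFD WT, which is 4.00% against 8.70% of all tested microRNAs (log2 fold change 1.55, SE 0.60, edgeR adjusted p = 0.129). With library totals 5 members had this separation, miR-382-5p, miR-409-3p, miR-431-5p, miR-434-3p and miR-434-5p, which is 20.0% against 24.9% of all tested microRNAs.

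The fourth of these, miR-136-5p, had 4, 3 and 3 counts for HFD WT and 5, 45 and 11 in HFD Sirt3 AKI, a difference carried by replicate 2 (2.26, SE 0.93, edgeR adjusted p = 0.153). The arm it is paired with, miR-136-3p, was at 20.6, 33.2 and 19.9 normalised CPM for HFD WT and at 14.0, 84.6 and 38.2 in HFD Sirt3 AKI (0.88, SE 0.56). The members called higher in HFD WT than in chow WT had smaller differences here. Their log2 fold changes were 0.52 for miR-434-3p, 0.21 for miR-541-5p, 0.35 for miR-381-3p, 0.53 for miR-134-5p and -0.23 for miR-154-5p. Both comparisons share the HFD WT libraries, so these values are not independent of the increases given above.

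Over the 25 members the median log2 fold change was 0.53, from -0.23 to 2.26, with 24 above 0. All tested microRNAs had a median of -0.02, with 47.6% above 0. The 9 tested members between Meg3 and miR-136 had a median of 1.10, and the 15 from miR-379 to miR-3072 one of 0.35, a difference that was not tested.

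The HFD Sirt3 AKI libraries stood apart from each other. Replicate 2 was the highest of the 3 in 23 of 25 tested members, or 92.0%, against 40.3% of all tested microRNAs. It was the highest of all 9 libraries in 22 of 25, or 88.0%, against 21.3% of all tested microRNAs. Replicate 1 was the lowest of the 3 in 21 of 25 members, or 84.0%, against 43.7%. Set against the HFD WT mean on the scale of log2(normalised CPM + 1), the median difference of the members was -0.38 in replicate 1, 1.49 in replicate 2 and 0.33 in replicate 3. For all tested microRNAs these medians were -0.14, 0.01 and 0.01.

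The size of the excess in replicate 2 varied among members. It was 3.02 for miR-136-5p, 2.33 for miR-431-5p, 2.13 for miR-411-5p and 1.93 for miR-127-3p on that log2 scale. It was least for miR-154-5p at 0.18 and miR-329-5p at 0.51. Replicate 2 was not the highest for miR-134-5p, with 34.2, 31.7 and 23.5 normalised CPM, and for miR-337-5p, with 1.08, 6.87 and 7.85. Replicate 3 and not replicate 1 was the lowest for miR-134-5p, miR-154-5p, miR-409-3p and miR-540-3p.

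**Figure D4:**
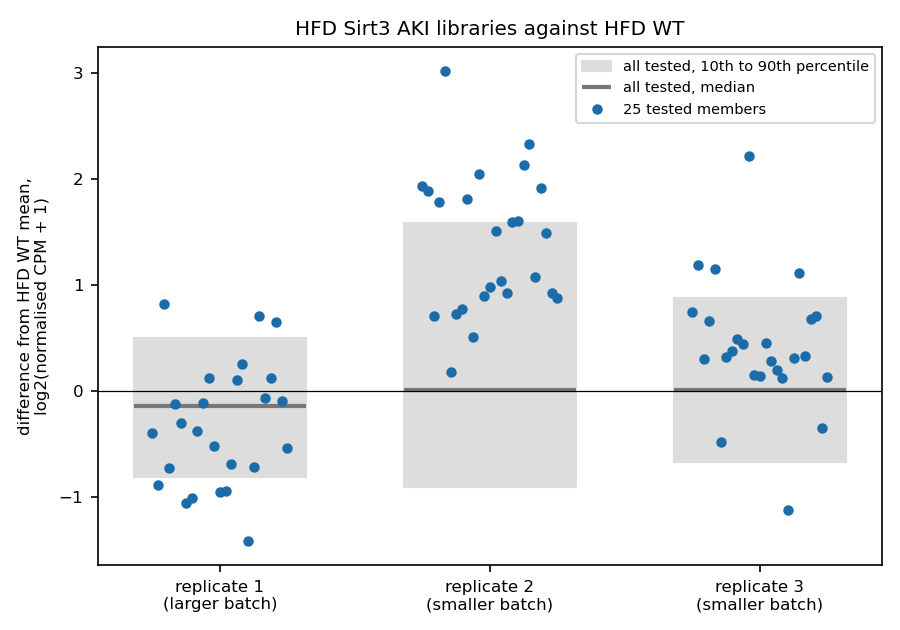
Each blue point is 1 of the 25 tested members, placed by its difference from the HFD WT mean in log2(normalised CPM + 1) in each HFD Sirt3 AKI library. Grey boxes span the 10th to the 90th percentile of all 414 tested microRNAs, and the grey line is their median. All 25 members lie above 0 in replicate 2, 22 in replicate 3 and 7 in replicate 1.

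Replicates 2 and 3 carry the other batch label, and in the larger batch HFD Sirt3 AKI has replicate 1 only. A fit of the larger batch alone gave the members a median log2 fold change of -0.27, and a fit with the batch label as a term gave -0.41. All tested microRNAs had medians of -0.06 and -0.19 in these fits. Both fits rest on that lone library, assumed to vary like the other groups. Without replicate 2 the median was 0.10 for the members and -0.05 for all tested microRNAs. None of 28 tested members was then called, against 51 of all 428 tested microRNAs (11.9%). Without replicate 1 the median was 0.84, and 10 of 30 tested members were called higher, or 33.3%, against 12.5% of all 441 microRNAs then tested. These were miR-127-3p, miR-127-5p, miR-136-3p, miR-136-5p, miR-300-3p, miR-369-3p, miR-379-5p, miR-411-5p, miR-431-5p and miR-434-5p. Genotype and batch cannot be told apart in the libraries of the smaller batch.

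Markers of other sources moved in the same library. All 11 brain microRNAs listed were counted, and their summed level was 2722 to 3495 normalised CPM for chow WT, 3940 to 4230 for HFD WT and 4570 to 9045 in HFD Sirt3 AKI, highest in replicate 2. Of the 10 brain microRNAs tested, 2 were called higher and 1 lower in HFD WT than in chow WT. None passed the test in HFD Sirt3 AKI, where their median log2 fold change was 1.24. The neuronal miR-124-3p was at 14.5, 12.4 and 19.2 for HFD WT and at 17.6, 195 and 47.6 in HFD Sirt3 AKI, and miR-9-5p at 239, 131 and 313 against 105, 3754 and 968. The brain microRNA miR-128-3p did not follow, with 4242, 4190 and 4160 in the HFD Sirt3 AKI libraries, and miR-219a-5p was at 25.6, 32.3 and 29.3. None of the 11 brain microRNAs was without a count over all libraries.

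The 2 hepatocyte microRNAs summed to 4146 to 4759 normalised CPM for HFD WT and 5677 to 25972 in HFD Sirt3 AKI, and the 7 of skin and epithelium to 4301 to 5655 and 7173 to 15701, in both cases highest in replicate 2 and with 1 microRNA called higher. The 7 striated muscle microRNAs summed to 10335 to 11803 and 8067 to 11964. The red cell microRNAs miR-486a-5p and miR-486b-5p had identical counts in every library and were counted once. The red cell list then summed to 210293 to 250161 and 144573 to 203490, and in chow WT to 100052 to 119326. In HFD Sirt3 AKI 3 of the 5 red cell entries, 1 of 3 platelet and myeloid and both endothelial microRNAs were called lower. In HFD WT against chow WT both endothelial ones were called higher. So were 2 of 3 platelet and myeloid and 2 of 4 tested striated muscle microRNAs. Of the 7 of skin and epithelium 1 was called higher and 4 lower, and their sum in chow WT was 10878 to 12260. Of the 5 red cell entries 2 were called higher, the identical miR-486a-5p and miR-486b-5p, and 1 lower. No hepatocyte microRNA was called. Hepatocyte and striated muscle sums in chow WT were 3370 to 6520 and 7081 to 8192. Platelet and myeloid microRNAs (3 listed) summed to 15133 to 15631 for chow WT, 19700 to 21619 for HFD WT and 13611 to 18543 in HFD Sirt3 AKI, and the 2 endothelial ones to 20325 to 23160, 39647 to 41391 and 27157 to 28305. The part of these sources in the values of the Dlk1-Dio3 members was not tested.

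MicroRNAs of other imprinted loci were set beside the cluster. From Mest, Igf2, H19 and Gnas 10 mature microRNAs were counted and 6 tested. None was called higher in HFD WT than in chow WT and 1 was called lower, miR-296-5p of the Gnas locus. It had 91.8, 123 and 154 normalised CPM for chow WT and 38.4, 17.6 and 11.9 for HFD WT (log2 fold change -2.42, SE 0.43, edgeR adjusted p = 0.00127). The 6 had a median log2 fold change of -0.39. In HFD Sirt3 AKI none of the 6 was called (median 0.24). The Sfmbt2 cluster had 30 mature microRNAs counted and 4 tested. Of the 4, 1 was called higher in HFD WT than in chow WT (median 1.35), and none was called in HFD Sirt3 AKI (median -0.19). The summed level of that cluster was 40.8 to 66.8 normalised CPM for chow WT, 143 to 161 for HFD WT and 94.6 to 120 in HFD Sirt3 AKI. In HFD Sirt3 AKI the Sfmbt2 cluster did not have the excess in replicate 2 seen in the Dlk1-Dio3 members. The 10 microRNAs of the other loci summed to 265 to 323 normalised CPM for chow WT and 151 to 181 for HFD WT. In the HFD Sirt3 AKI libraries they summed to 134, 247 and 183, so replicate 2 was the highest of that group and above HFD WT.

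**Figure D5:**
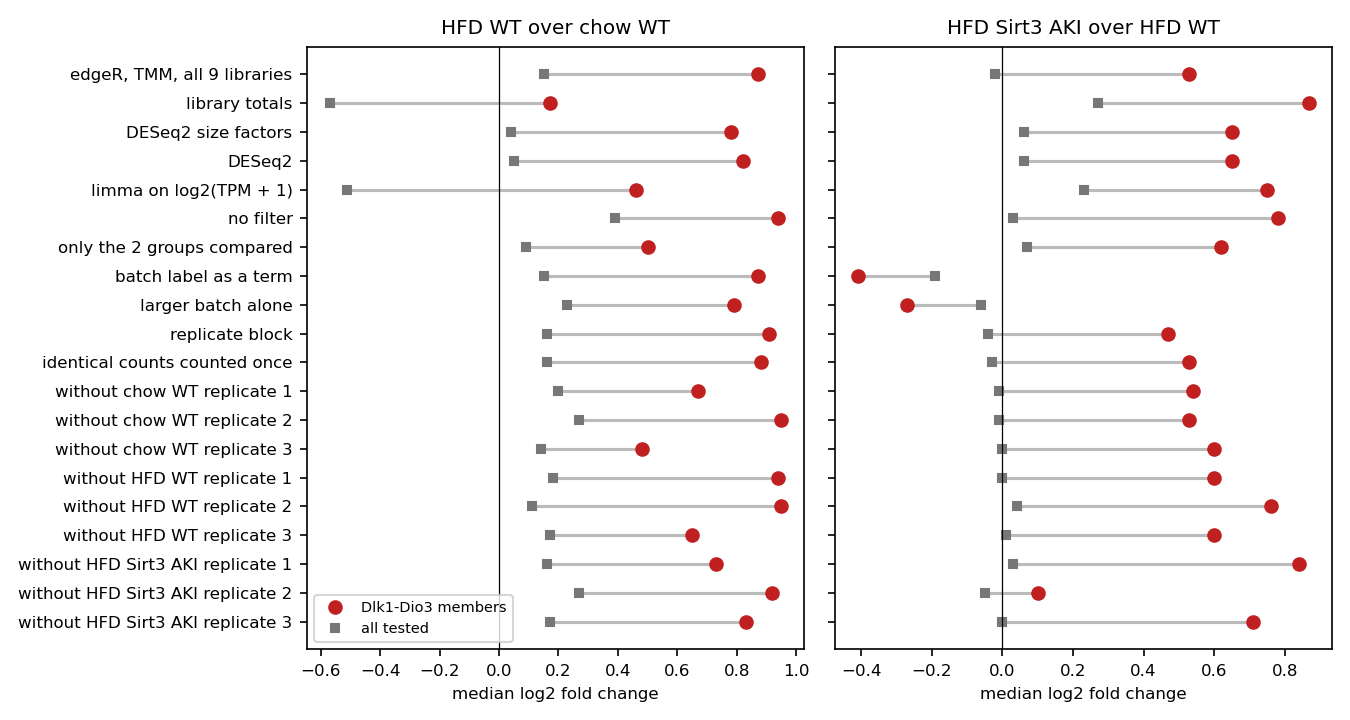
Median log2 fold change of the tested Dlk1-Dio3 members (red circles) and of all tested microRNAs (grey squares) under each processing setting, for both comparisons. In HFD WT over chow WT the members stay above the rest in all settings, by 0.34 to 0.97. In HFD Sirt3 AKI over HFD WT they lie below it with the batch label as a term and in the larger batch alone.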

How the data were processed

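The authors deposited counts per mature microRNA and TPM (here counts per 1000000 of the library total) for 9 libraries. The submitters' processing notes name Bowtie 0.12.2 and the build mm8, with no role given, and no other step is stated there or in the labels. TPM from the authors differed from values recomputed from the deposited counts by at most 5.00e-05. Members and lists were chosen with earlier results of these data known. Counts were tested with edgeR 4.0.16 (R 4.3.3) by its quasi-likelihood test on group means over all 9 libraries, with TMM scaling, a filter at a minimum count of 10, and Benjamini-Hochberg adjustment over 414 microRNAs at 0.05. The 105 predicted microRNAs entered the same tables but no list. Alternatives were library totals, DESeq2 1.42.0 and its size factors, limma 3.58.1 on log2(TPM + 1), no filter, batch terms, a replicate block and leaving out each library. The named microRNAs were the called members, the 10 most counted, the other arms of both, and those with an unadjusted p below 0.05. Others are described as examples chosen after their values were seen. The script was tested on simulated data. Sequences came from RefSeq (GRCm38.p6), and since the builds differ no coordinates are given. Serum vesicles had been precipitated with a commercial reagent, per the labels' protocols, which does not separate them by cell of origin.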

Additional observations from a re-analysis of the deposited data

How the results depend on the processing

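Most counts of called members that were 0 in the main fit stayed 0 under the alternatives, which says little of their stability. The count of members higher in HFD WT, the only one above 0, left the range of 1.5 times in several alternatives. Most medians stayed within the spread. The exceptions were as follows. For HFD WT over chow WT, 0 of 25 tested members were higher with library totals, against 20 of all 414 tested microRNAs. With DESeq2 this was 3 of 25 (all tested: 67 of 414) and with limma on TPM 0 of 25 (21 of 414). Without the filter it was 9 of 77 (107 of 1169). With a library left out, 0 to 7 of 28 to 32 tested members were higher, against 61 to 118 of 428 to 444 microRNAs. The median log2 fold change was 0.17 with library totals, 0.46 with limma, 0.50 with only the groups compared, and 0.48 to 0.95 with a library left out. For HFD Sirt3 AKI over HFD WT, 1 of 25 members was higher with DESeq2 (all tested: 35 of 414) and 5 of 77 without the filter (33 of 1169). With a library left out, 0 to 10 of 28 to 32 tested members were higher, against 1 to 55 of 428 to 444 microRNAs. The median was -0.41 with the batch label as a term and -0.27 in the larger batch alone. The share in HFD WT was 0.0796% of the TMM-scaled total, and detected members at the lowest depth were 28.5 for the former group and 36.1 for HFD Sirt3 AKI. In alternatives chosen after seeing the data, library totals in place of TMM gave 2 in place of 10 members with all HFD WT libraries above chow WT, and 5 in place of 1 with all HFD Sirt3 AKI libraries above HFD WT. The cause of these changes was not tested.

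For HFD WT over chow WT the sign turned with library totals and with limma in miR-127-3p (-0.25 and -0.18), miR-127-5p (-0.48 and -0.29), miR-136-3p (-0.58 and -0.43), miR-379-5p (-0.15 and -0.08), miR-382-5p (-0.59 and -0.57), miR-411-5p (-0.04 and -0.02) and miR-434-5p (-0.22 and -0.22). With a library left out, the values ran from -0.07 to 0.50 in miR-127-5p, -0.12 to 0.79 in miR-136-3p, -1.44 to 0.49 in miR-136-5p and -0.0017 to 0.27 in miR-382-5p.

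For HFD Sirt3 AKI over HFD WT the sign turned with the batch term and in the larger batch alone in miR-127-3p (-0.41 and -0.27), miR-127-5p (-1.06 and -0.91), miR-136-3p (-0.80 and -0.66), miR-136-5p (-0.19 and -0.05), miR-300-3p (-0.41 and -0.27), miR-341-3p (-0.54 and -0.40), miR-379-5p (-0.98 and -0.84), miR-381-3p (-0.73 and -0.59), miR-411-5p (-0.75 and -0.61), miR-540-3p (-0.23 and -0.09) and miR-541-5p (-0.61 and -0.47). With the batch term alone it turned in miR-434-3p (-0.08), and with library totals and with limma in miR-154-5p (0.09 in both). With a library left out, the values ran from -0.14 to 0.58 in miR-341-3p, -0.11 to 1.09 in miR-379-5p, -0.15 to 0.70 in miR-381-3p, -0.13 to 1.50 in miR-411-5p, -0.31 to 0.53 in miR-540-3p and -0.20 to 0.51 in miR-541-5p.

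Nothing in the labels says that replicate numbers pair the libraries. Correlations of same-numbered deviations ran from -0.07 to 0.11, which with 3 libraries per group cannot exclude a pairing. A replicate block gave 5 of 25 tested members higher in HFD WT than in chow WT, against 87 of all 414 tested microRNAs. It called 0 of 25 in HFD Sirt3 AKI against HFD WT, where 31 of 414 (7.49%) were called in either direction. The medians of the members were 0.91 and 0.47, against 0.16 and -0.04 for all tested microRNAs. Depth in chow WT limits the members with few counts there.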
